A study of Mus musculus with 36 samples.

Results

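The genes of 6 subunits of the GABA-A receptor were followed in adult mouse brain: Gabrb1 and Gabrb2 of the beta class, Gabrg1 and Gabrg3 of the gamma class, Gabrd (delta) and Gabre (epsilon). They were chosen by gene symbol, and all 6 had a row among the 24421 genes listed for each tissue. GABA-A receptors are chloride channels of 5 subunits, opened by the inhibitory transmitter GABA. Most hold alpha and beta subunits, between which GABA binds, together with a gamma subunit, which helps to place the receptor at synapses and forms part of the site for benzodiazepines. Where the delta subunit takes the place of gamma, the receptor lies outside the synapse and answers to low ambient GABA. Such receptors, with alpha6 in cerebellar granule cells and alpha4 in dentate granule cells, carry a standing, or tonic, inhibition. Epsilon is a rarely used subunit, known mainly from the hypothalamus and brainstem.

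Poly(A) RNA-seq covered cerebellum and hippocampus of 18 adult C57Bl/6 mice, each mouse giving both tissues, with 3 males and 3 females in each of 3 genotypes. Controls were Pogzfl/fl without a Cre, Pogz cKO+/- mice were NesCre/+; Pogzfl/+, and Pogz cKO-/- mice were NesCre/+; Pogzfl/fl, so that 2, 1 and 0 intact Pogz alleles remain in cells that expressed the Nestin-driven Cre. Pogz encodes a zinc finger protein of chromatin linked to transcriptional repression and to neurodevelopmental disorders. Every cKO animal carries the Cre and no control does, so an effect of the transgene and one of the deletion cannot be told apart between controls and either cKO group, and cells that do not derive from Nestin-expressing progenitors keep the gene.

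Total gene counts ranged from 21421850 to 32544929 in the cerebellar libraries and from 17609321 to 45544188 in the hippocampal ones. Pogz itself was at 97.5 ± 14.4, 76.4 ± 5.59 and 64.2 ± 7.53 CPM (counts scaled to the size of the library; mean ± SD, n = 6 each) in the cerebellum of control, cKO+/- and cKO-/- mice, and at 93.5 ± 1.27, 78.0 ± 1.85 and 62.9 ± 3.87 (n = 6, 6 and 5) in the hippocampus. The deletion removes only some exons of Pogz, whereas these counts cover the whole gene, so RNA from the remaining exons can be counted too. They are therefore no measure of how complete the deletion was. The paper verified the genotypes with reads over the deleted exons. Summed markers fitted the tissue labels, with cerebellar granule cell markers at 3260 to 7164 CPM in cerebellar and 101 to 372 in hippocampal libraries. The samples are called here by the number in their label, and a few stood apart. The hippocampus of the cKO-/- female Sample_1160 had interneuron markers at 1955 CPM, against at most 947 in the other groups, and was left out of the hippocampal tests; the study's methods mention the exclusion of an outlying RNA sample and do not name it. The hippocampus of control female Sample_1129 held 372 CPM of cerebellar granule cell and 619 CPM of Purkinje cell markers, and 3067 CPM of choroid plexus markers were counted in the cerebellum of the cKO+/- male Sample_1433. Choroid plexus markers were also high in the hippocampus of Sample_1385 (5012 CPM), Sample_1129 (4950), Sample_1170 (2438) and Sample_1219 (1149). Allele effects of the tested members in the hippocampus are given with and without Sample_1160.

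Promoter windows from the mouse RefSeq table (GRCm38.p6) were found for 5 of the 6 genes. They are shown as the 250 bases before the annotated start, 5′ to 3′ on the strand of the gene, so that genes higher in the hippocampus (Gabrb1 and Gabrg3), higher in the cerebellum (Gabrb2), not called between the tissues in the main fit (Gabrg1) and with a few counts per library (Gabre) can be set side by side. Gabrd, also higher in the cerebellum, is not shown. Gabrb1 at chr5:71699682-71699931 (plus strand), Gabrg3 at chr7:57387216-57387465 (minus), Gabrg1 at chr5:70842618-70842867 (minus) and Gabre at chrX:72274722-72274971 (minus) ended 84, 344, 0 and 0 bases from the deposited start of their gene. The Gabrb2 window, chr11:42420190-42420439 (plus), lies inside the deposited gene and outside its exons, and is the nearest to the deposited start of the windows listed for that gene. None of the 5 overlapped a deposited exon, other than the Gabrg3 window, which holds an exon of Gm9962 on the opposite strand. Capitals mark matches to the classic core promoter box TATAAA, the upstream element CCAAT, the GC box GGGCGG, the motif TGACGT (core of the cAMP response element) and CGCATGCG (core of the palindrome bound by NRF1) on either strand, and were picked with these sequences in view.
Gabrb1: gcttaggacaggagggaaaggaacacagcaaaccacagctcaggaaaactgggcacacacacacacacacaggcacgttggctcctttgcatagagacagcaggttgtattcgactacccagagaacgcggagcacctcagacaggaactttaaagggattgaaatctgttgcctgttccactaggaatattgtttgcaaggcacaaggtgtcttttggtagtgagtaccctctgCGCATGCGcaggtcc
Gabrb2: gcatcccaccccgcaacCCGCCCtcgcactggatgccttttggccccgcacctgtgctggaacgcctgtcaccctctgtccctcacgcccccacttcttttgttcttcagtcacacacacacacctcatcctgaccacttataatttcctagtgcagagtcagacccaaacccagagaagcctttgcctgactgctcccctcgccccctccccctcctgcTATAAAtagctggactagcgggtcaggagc
Gabrg3: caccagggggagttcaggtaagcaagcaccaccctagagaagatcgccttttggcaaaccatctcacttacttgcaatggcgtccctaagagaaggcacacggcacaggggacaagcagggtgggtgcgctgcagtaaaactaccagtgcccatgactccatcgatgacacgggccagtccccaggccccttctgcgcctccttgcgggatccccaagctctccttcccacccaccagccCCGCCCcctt
Gabrg1: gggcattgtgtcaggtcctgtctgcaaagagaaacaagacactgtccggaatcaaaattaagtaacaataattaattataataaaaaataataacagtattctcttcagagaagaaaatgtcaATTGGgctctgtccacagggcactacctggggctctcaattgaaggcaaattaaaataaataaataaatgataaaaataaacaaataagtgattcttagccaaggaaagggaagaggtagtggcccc
Gabre: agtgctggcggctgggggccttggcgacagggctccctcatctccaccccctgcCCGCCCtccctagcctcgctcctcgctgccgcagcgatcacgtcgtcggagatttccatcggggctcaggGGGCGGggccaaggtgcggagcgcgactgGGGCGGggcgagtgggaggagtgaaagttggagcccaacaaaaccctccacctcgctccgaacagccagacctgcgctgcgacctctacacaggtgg
The windows had little in common. The NRF1 palindrome core stood 15 to 8 bases before the start of Gabrb1 and occurs in 1.55% of the 32851 windows of that length in the table. GC boxes, present in 32.7% of windows, stood 10 to 5 bases before the start of Gabrg3, 233 to 228 before that of Gabrb2 and at 3 places in the window of Gabre. Gabrb2 was the only one of the 5 with a TATAAA (12.4% of windows), 30 to 25 bases before its start. Gabrg1 held only an inverted CCAAT box (33.8% of windows), and none of the 5 matched TGACGT (6.47%). G and C made up 35.6% of the Gabrg1 window, 50.8% of Gabrb1, 58.8% of Gabrb2, 60.4% of Gabrg3 and 68.8% of Gabre, against a median of 52.4% over all windows.

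The 6 genes covered more than 3 orders of magnitude in the control mice, and the leading subunit differed between the tissues. For this comparison between genes the levels were divided by the deposited exon length and are given as RPKM (CPM per kilobase of exon), over 6 controls per tissue. In the cerebellum Gabrd led with 140.1 ± 12.8 RPKM (SD, n = 6), ahead of Gabrb2 with 72.5 ± 12.5. Gabrb1 (6.41 ± 1.63) and Gabrg1 (3.70 ± 0.802) followed and overlapped each other. Gabrg3 (0.165 ± 0.0540) and Gabre (0.0102 ± 0.0142) came last, each below the range of the gene before it. The hippocampus was led by Gabrb2 with 33.8 ± 2.81 RPKM. Gabrd (19.4 ± 4.25) and Gabrb1 (12.1 ± 3.31) overlapped in the next places, and Gabrg1 (4.31 ± 0.424), Gabrg3 (1.79 ± 0.472) and Gabre (0.0334 ± 0.0184) followed without overlap. As a share of the summed RPKM of the 6 genes, Gabrd went from 62.9% ± 6.12 in the cerebellum to 27.1% ± 5.14 in the hippocampus, and Gabrb1 from 2.87% ± 0.693 to 16.7% ± 2.91 (SD, n = 6).

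**Figure D1:**
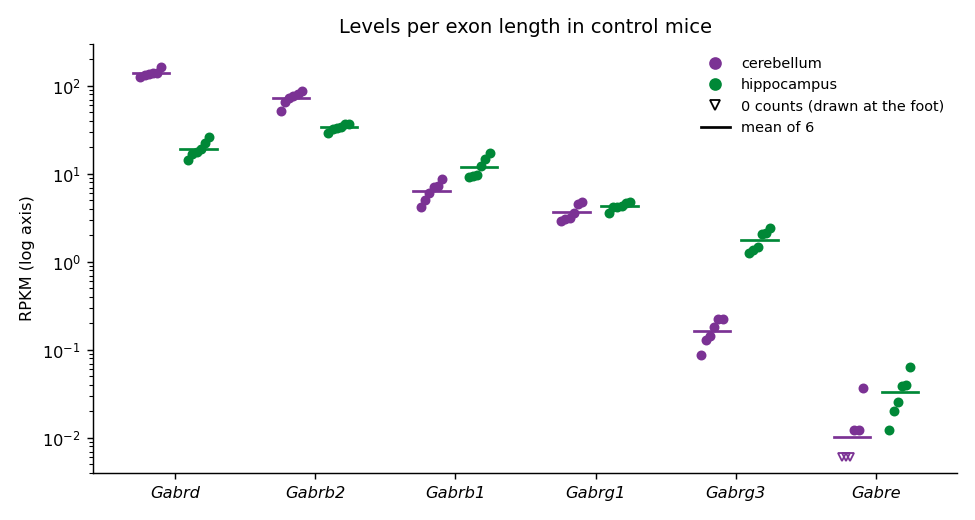
Level per exon length (RPKM, log axis) of the 6 subunit genes in the 6 control mice of each tissue, with a dot per library, a line at the mean and open triangles for libraries without a count. Gabrd and Gabrb2 stand highest in both tissues, and Gabrg3 has the widest gap between them (0.165 and 1.79 RPKM).

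The difference between the tissues was tested within the 12 control libraries, where 5 of the 6 genes passed the filter of over 1 CPM in at least 6 libraries. The main fit treated both libraries of an animal as independent. Hippocampus and cerebellum differed for 4 of the 5, with 2 genes higher and 2 lower in the hippocampus. This share is read against 71.9% of all 14224 tested genes called, 35.2% higher and 36.7% lower, so a difference between these tissues is the rule and not particular to the subunits. The 4 genes were also those whose hippocampal and cerebellar controls did not overlap, which held for 52.3% of all tested genes. In whole tissue, fewer cells of a type and less RNA per cell cannot be told apart.

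Both beta genes changed between the tissues, in opposite directions. Gabrb1 (chr5, 71700016 to 72137244 of GRCm38, plus strand) ranged from 7.81 to 16.1 CPM in control cerebellum (median 12.3) and from 16.98 to 31.9 (median 20.4) in control hippocampus. Every hippocampus was thus above every cerebellum, by a narrow margin at the nearest libraries. The difference was 0.90 on the log2 scale, or 1.87-fold (SE 0.18, adjusted p = 0.000545, edgeR quasi-likelihood test). Gabrb2 (chr11, 42419757 to 42632591, plus strand), a beta subunit of synaptic receptors, ranged from 387 to 657 CPM in the cerebellum (median 566) and from 222 to 279.7 (median 254) in the hippocampus. It was 2.12-fold lower in the hippocampus (log2 -1.08, SE 0.11, adjusted p = 9.5e-07, edgeR).

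Of the gamma genes, Gabrg3 had the largest fold difference of the tested genes and Gabrg1 had none that passed in the main fit. Gabrg3 (chr7, 56724242 to 57386871, minus strand) was at 0.147 to 0.374 CPM in control cerebellum (median 0.274, from 4 to 11 counts) and at 2.14 to 4.03 (median 2.99, from 76 to 138 counts) in control hippocampus, which is 10.8-fold higher (log2 3.43, SE 0.19, adjusted p = 1.77e-09, edgeR). With 0 cerebellar libraries above 1 CPM, Gabrg3 passed the filter only through the hippocampus, where it is high. Its call is therefore tied to that selection, and its fold rests on few cerebellar counts. Gabrg1 (chr5, 70751047 to 70842617, minus strand) lies on the same chromosome as Gabrb1, and only Gabrb1 of the pair was called in the main fit. Controls of Gabrg1 ranged from 14.001 to 23.1 CPM in the cerebellum (median 16.2) and from 17.1 to 22.8 in the hippocampus (median 20.4), so they overlapped. The difference of 0.24 (SE 0.13, 95% interval -0.038 to 0.52) did not pass (adjusted p = 0.110, edgeR). Each control animal gave both tissues, and with the animal as a block it was 0.26 and passed (adjusted p = 0.0345, edgeR; 73% of all genes called in that fit).

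Gabrd was the gene with the strongest cerebellar excess. It lies on chr4 from 155384979 to 155398069 on the minus strand and was at 237 to 308 CPM in control cerebellum (median 260.1) against 27.0 to 49.0 in control hippocampus (median 34.5). The cerebellar libraries were all far above the hippocampal ones, by 7.11-fold (log2 -2.83, SE 0.13, adjusted p = 3.3e-10, edgeR). The highest hippocampal value, 49.0, came from animal Sample_1129, whose library also held cerebellar markers. Without that animal the difference was -2.95. Gabre (chrX, 72257432 to 72274721, minus strand) had 0 to 3 counts per cerebellar and 1 to 7 per hippocampal control and was below the filter, so no fold is given.

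The tissue pattern was similar within the mutant groups. In cKO+/- mice Gabrb1 differed by 0.76, Gabrb2 by -1.17, Gabrg3 by 2.55 and Gabrd by -2.97, and in cKO-/- mice by 1.03, -1.02, 2.58 and -2.88, and all of these passed in edgeR, in fits that called 74% and 62.9% of all genes. For Gabrg3 the mutant values were smaller than the 3.43 of controls, beside a higher cerebellar level in both cKO groups, described below. The difference of the tissue effect between genotypes was not tested for Gabrg3.

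**Figure D2:**
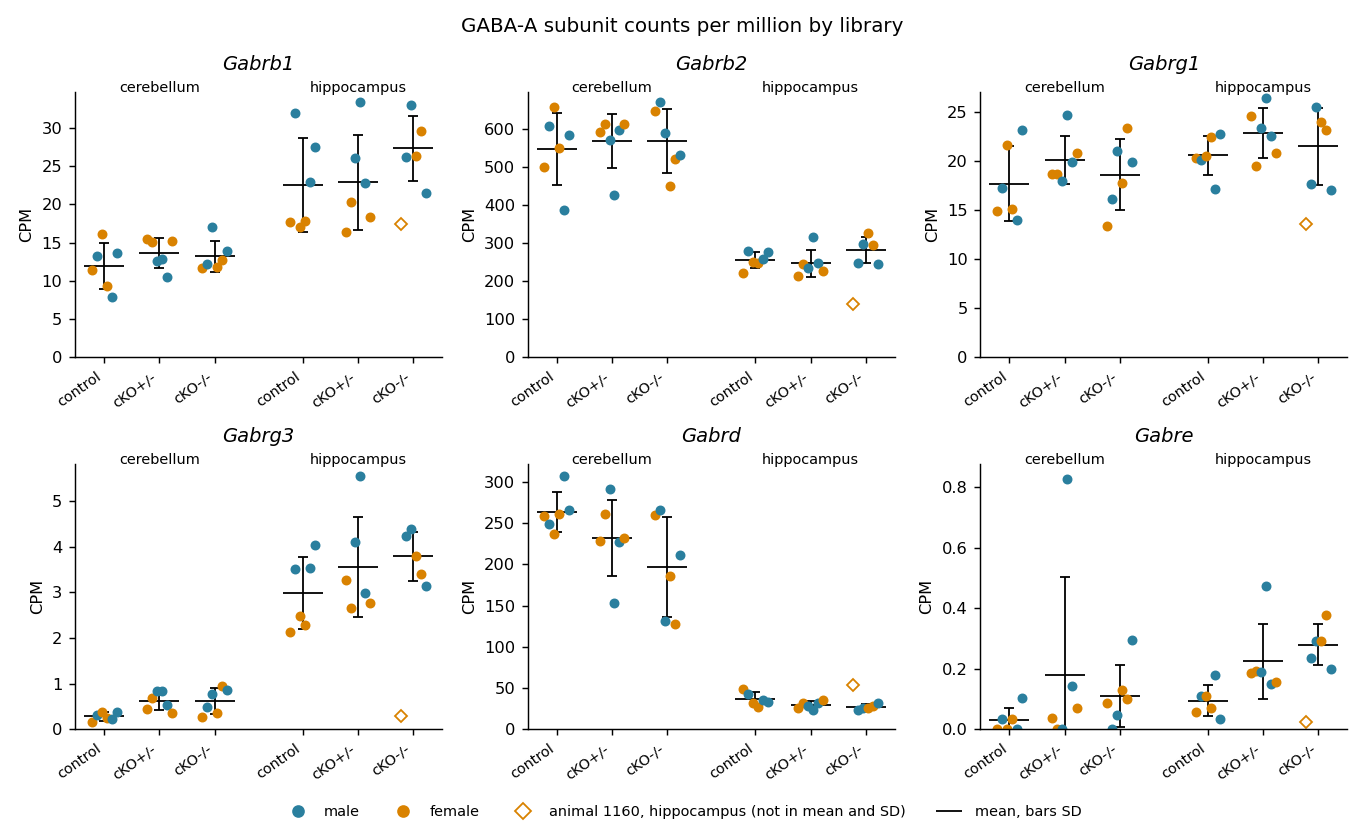
CPM of each gene in every library, with linear axes from 0, by tissue and genotype, coloured by sex. Horizontal lines give the mean of 6 libraries (5 for hippocampal cKO-/-) and bars the SD, cut at 0. Gabrd reaches 127 to 266 CPM in cerebellar cKO-/- mice against 237 to 308 in controls, and the open diamond of hippocampus Sample_1160 lies apart for Gabrb2, Gabrg3, Gabrd and Gabre.

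Whether the genes followed Pogz dosage was tested as a change per allele lost, with sex as a covariate. No member passed an FDR of 0.05 in either tissue in edgeR. In the cerebellum 0 of 4 tested members passed, where 13.7% of 14027 genes were called, and in the hippocampus 0 of 5, where 4.44% of 14339 were called. At an unadjusted p under 0.05 stood Gabrd in both tissues and Gabrg3 in the hippocampus, against 30.2% and 20.1% of all tested genes. DESeq2's Wald test called 1 member, Gabrd in the hippocampus, where it called 7.31% of all genes. Cerebellar cKO-/- mice lay wholly to one side of the controls for 0 members, against 4.61% of tested genes. The median change of the tested members was 0.038 in the cerebellum and 0.074 in the hippocampus, on a log2 scale on which the median of all genes was 0.00087 and 0.0017.

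The beta genes had small changes with intervals on either side of 0. Gabrb1 was at 11.9 ± 3.03, 13.6 ± 1.97 and 13.2 ± 2.04 CPM (SD, n = 6 each) in cerebellum of control, cKO+/- and cKO-/- mice, a change of 0.081 per allele (95% interval -0.078 to 0.24, adjusted p = 0.503, edgeR). In the hippocampus the 5 cKO-/- libraries were at 21.5, 26.2, 26.4, 29.6 and 33.0 CPM, inside and slightly above the controls' 16.98 to 31.9. The change there was 0.15 (interval -0.0039 to 0.29, adjusted p = 0.260, edgeR), and 0.13 (adjusted p = 0.349, edgeR) with hippocampus Sample_1160. Leaving out each animal gave 0.035 (without Sample_1190) to 0.12 (without Sample_1170) in the cerebellum and 0.084 (without Sample_1385) to 0.19 (without Sample_936) in the hippocampus. Gabrb2 varied little between the genotypes. Its cerebellar means were 547 ± 94.5, 568 ± 71.4 and 568 ± 83.3 CPM (SD, n = 6 each), with a change of 0.032 per allele (interval -0.089 to 0.15). Its hippocampal means were 255 ± 21.2, 247 ± 35.4 and 282 ± 34.7 (SD, n = 6, 6 and 5), with a change of 0.074 (interval -0.025 to 0.17), which was 0.021 with Sample_1160. Leaving out each animal gave -0.0040 (without Sample_1190) to 0.068 (without Sample_1379) in the cerebellum and 0.033 (without Sample_1379) to 0.094 (without Sample_936) in the hippocampus, and neither beta gene was called in any of these fits.

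Gabrg1 gave a change of 0.043 per allele in the cerebellum (interval -0.11 to 0.20) and 0.044 in the hippocampus (interval -0.079 to 0.17), or -0.0025 with Sample_1160. Single animals moved these values, from 0.00089 without Sample_1385 to 0.085 without Sample_1160 in the cerebellum, and from 0.014 without Sample_1190 to 0.082 without Sample_936 in the hippocampus, with no call in any fit. In both tissues its cKO+/- mean was the highest of the 3 genotypes, 20.1 ± 2.45 CPM (SD, n = 6) in the cerebellum and 22.8 ± 2.51 in the hippocampus, and with genotype as a factor cKO+/- mice did not differ from controls beyond the threshold (adjusted p = 0.613 and 0.662, edgeR; 0.342% and 0.0349% of all genes called). Gabrg3, a minor gamma subunit, was tested in the hippocampus only. Its 5 cKO-/- libraries had 3.13, 3.40, 3.79, 4.23 and 4.39 CPM, against 2.14 to 4.03 in controls and 2.65 to 5.55 in cKO+/- mice. The groups overlapped, and the change was 0.17 per allele (interval 0.0090 to 0.34, unadjusted p = 0.0398, adjusted p = 0.224, edgeR). Hippocampus Sample_1160 lay far below with 0.292 CPM from 12 counts. With it among 18 libraries the change was 0.051 (adjusted p = 0.888, edgeR), in a fit that called 1.72% of all genes.

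Gabrd had a change of -0.21 per allele in each tissue, the largest in size among the tested members, and it did not pass the threshold in either. In the cerebellum controls ranged from 237 to 308 CPM (median 260.1), cKO+/- mice from 154 to 292 (median 230) and cKO-/- mice from 127 to 266 (median 198). Of the 6 cKO-/- libraries, 4 lay below all controls and 2 among them. The change of -0.21 had an SE of 0.083 and an interval of -0.38 to -0.034 (unadjusted p = 0.0218, adjusted p = 0.0990, edgeR). Leaving out animal Sample_1160 gave -0.26 (adjusted p = 0.0390, edgeR) and leaving out Sample_1219 gave -0.26 (adjusted p = 0.0433, edgeR), so the call depended on single animals. These were the cKO-/- animals with the highest Gabrd. The fit without Sample_1160 also called more of all genes, 2572 in place of 1916. In the hippocampus controls ranged from 27.0 to 49.0 CPM (median 34.5), cKO+/- mice from 22.7 to 34.9 (median 29.8), and the 5 cKO-/- libraries were at 23.6, 25.3, 25.4, 28.0 and 32.2. Of these 5, 3 lay below all controls. The change had an SE of 0.070 and an interval of -0.36 to -0.067 (unadjusted p = 0.00672, adjusted p = 0.0931, edgeR). It passed without cKO-/- animal Sample_936 (-0.25, adjusted p = 0.0420, edgeR), in a fit that called 937 of all genes in place of 636. It also passed without control Sample_1172 (-0.25, adjusted p = 0.0448, edgeR), and in DESeq2 over the same 17 libraries (-0.22, adjusted p = 0.0431). Hippocampus Sample_1160 had the highest Gabrd of the 18, 53.5 CPM, and with it the change was -0.096 (adjusted p = 0.601, edgeR). Without control Sample_1129 it was -0.16.

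**Figure D3:**
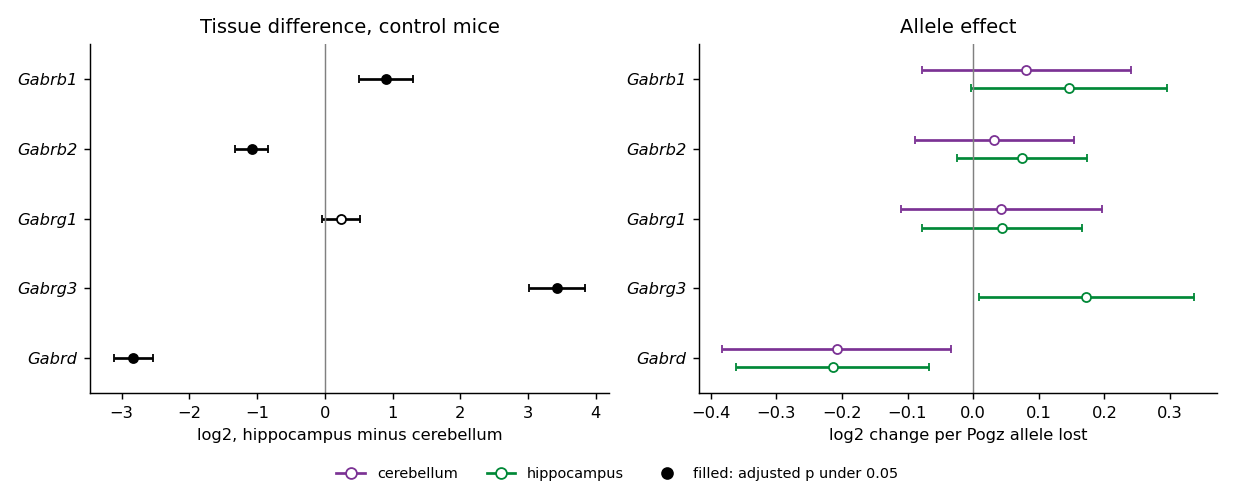
Log2 differences of 5 members with 95% intervals, between hippocampus and cerebellum in 12 control libraries (left) and per Pogz allele lost in 18 cerebellar and 17 hippocampal libraries (right), where filled points passed an adjusted p of 0.05. Gabrb1 and Gabrg3 lie right of 0 and Gabrb2 and Gabrd left of it between the tissues, whereas every point of the allele effect is open.

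Gabrd in the cerebellum moved with the numbers of the animals and with granule cell markers. The controls were all numbered between Sample_1120 and Sample_1219, while 3 cKO+/- and 4 cKO-/- animals lay outside this range; the labels do not say what the numbers stand for. Within the range, the means were 263 CPM in 6 controls, 260.3 in 3 cKO+/- and 263 in 2 cKO-/- animals. Outside it they were 204 in 3 cKO+/- and 164 in 4 cKO-/- animals. Within the range the 3 genotypes were thus alike in their means, outside it no control is left to compare, and with a covariate for the range the cerebellar change was -0.066 (adjusted p = 0.723, edgeR), with 2.2% of all genes called. In the hippocampus the same covariate left -0.26 (adjusted p = 0.4996, edgeR), with 0.474% of all genes called. There the means within the range were 36.5 CPM in 6 controls (27.0 to 49.0) and 28.4 in 3 cKO+/- animals (25.4 to 31.7). The only cKO-/- library tested within the range had 23.6 CPM. Outside the range the hippocampal means were 29.7 in 3 cKO+/- and 27.7 in 4 cKO-/- animals.

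Summed over 9 markers of cerebellar granule cells, the cerebellar libraries held 5523 to 6365 CPM in controls, 3590 to 7164 in cKO+/- and 3260 to 6829 in cKO-/- mice. All 9 were tested, and 1 of them, the transcription factor gene Barhl1, was called lower. The Pearson correlation of Gabrd with the list over the 18 cerebella was 0.91, the highest of 12 marker lists. That with CA1 and CA3 pyramidal cell markers, which are low in this tissue, was -0.90. These correlations describe libraries that share their tissue and dissection. The controls alone did not keep this order. Sample_1190 had their highest Gabrd (308 CPM) and lowest marker sum (5523), Sample_1170 their lowest Gabrd (237) beside a sum of 6350, and the other controls lay between in Gabrd. Gabrd as a percentage of the marker sum was 4.41 ± 0.629, 3.97 ± 0.227 and 3.92 ± 0.317 (SD, n = 6 each) in the 3 genotypes, and the groups overlapped. In the hippocampus 3 of 6 dentate granule cell markers, C1ql2, Dsp and Il16, were called lower per allele. Their list summed to 462 to 862 CPM in controls, 266 to 579.7 in cKO+/- mice and 393 to 482 in the 5 cKO-/- mice, and its correlation with Gabrd over 17 libraries was 0.80, again the highest of the 12, followed by 0.69 for Purkinje cell markers. As a percentage of that sum Gabrd was 5.82 ± 0.981, 6.85 ± 1.51 and 6.25 ± 0.416 (SD, n = 6, 6 and 5). The part of granule cell content in the Gabrd values was not tested.

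**Figure D4:**
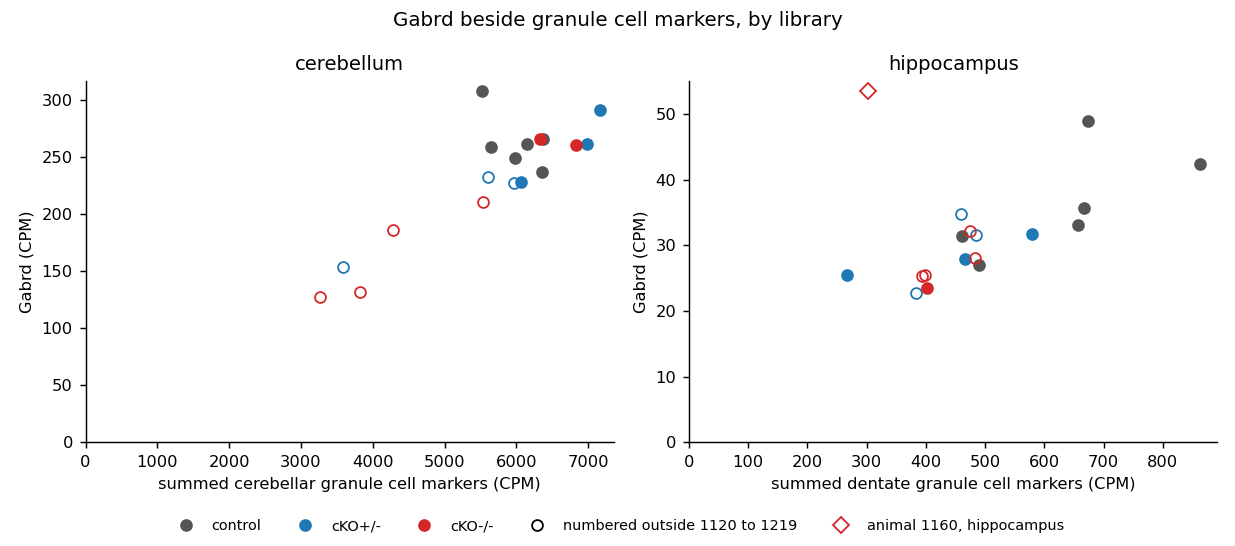
Gabrd (CPM) against the summed markers of cerebellar granule cells (left) and dentate granule cells (right), a point per library, coloured by genotype and open for animals numbered outside Sample_1120 to Sample_1219. The cerebellar libraries with the least Gabrd (127, 131 and 154 CPM) also have the least granule cell marker signal, and hippocampus Sample_1160 (diamond) lies away from the others.

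The pair of subunits with the fewest counts were examined without the filter. Gabrg3 in the cerebellum had 4 to 11 counts per control, 10 to 28 per cKO+/- and 6 to 29 per cKO-/- library, or 0.276 ± 0.0903, 0.612 ± 0.199 and 0.613 ± 0.281 CPM (SD, n = 6 each). Both cKO means were above every control, while single cKO libraries overlapped with them. The fit without the filter gave 0.55 per allele (SE 0.18, adjusted p = 0.0656, edgeR; 9.27% of 20443 genes called). Over the 18 cerebella Gabrg3 correlated with the summed astrocyte markers (r = 0.81), followed by microglia markers (r = 0.67). The astrocyte sums ran from 1637 to 2023 CPM in controls, 2222 to 2631 in cKO+/- and 2289 to 2729 in cKO-/- mice, with 4 of 6 markers called higher. Controls had the lowest Gabrg3 mean and the lowest astrocyte sums, so the correlation includes the difference between genotypes. The part of astrocyte content in the Gabrg3 change was not tested.

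Gabre was at the edge of detection. In the hippocampus it had 1 to 7 counts per control (0.0347 to 0.179 CPM), 5 to 11 per cKO+/- library (0.148 to 0.473) and 5, 7, 7, 8 and 10 counts in the 5 cKO-/- libraries (0.199 to 0.378). In CPM all 5 cKO-/- libraries lay above all 6 controls, though the counts of the 2 groups overlapped. Such a separation held in either direction for 3.64% of the tested genes, a set without Gabre. The fit without the filter gave 0.73 per allele (SE 0.20, unadjusted p = 0.00169, adjusted p = 0.0515, edgeR; 3.21% of 21089 genes called), just short of the threshold, and hippocampus Sample_1160 had 1 count. A count of 3 corresponds to between 0.0659 and 0.1704 CPM in these libraries, so the controls were near this floor. In the cerebellum 0 to 3 counts were found in controls and 0 to 8 in all but 1 of the cKO libraries. The exception was the cKO+/- animal Sample_1433 with 28 counts (0.829 CPM), the library with 3067 CPM of choroid plexus markers against 19.9 to 27.3 in controls. The only other cerebella above 100 CPM of these markers, Sample_936 with 2995 and Sample_933 with 2327, had 8 and 4 counts of Gabre. Over the 18 cerebella the correlation of Gabre with these markers was 0.82. In the hippocampus the cKO-/- library with the highest Gabre of its group, Sample_1385 with 10 counts (0.378 CPM), was also the library with the most choroid plexus markers (5012 CPM), while control Sample_1129 with 4950 CPM of them had 2 counts of Gabre (0.0562 CPM), and the correlation over 17 hippocampi was 0.040. The part of choroid plexus in the Gabre values was not tested.

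The allele effect was compared between the tissues, and between the sexes, as an interaction. For the tissues, 0 of 4 members tested in both differed (1.49% of 13587 genes called), with differences of 0.060 for Gabrb1, 0.035 for Gabrb2, -0.0060 for Gabrg1 and -0.013 for Gabrd. The interval for Gabrd ran from -0.24 to 0.22. For the sexes 0 members passed, and edgeR called 0 genes in either tissue, with 557 cerebellar genes (3.97%) and 770 hippocampal genes (5.37%) at an unadjusted p under 0.05. Hippocampal Gabrb1 and Gabrb2 were among the latter, with allele effects that were 0.33 and 0.19 higher in the female than in the male mice (SE 0.12 and 0.086, adjusted p = 0.795 for both, edgeR), and 0.26 and 0.065 higher with Sample_1160.

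Sex itself left 2 members close to the threshold in the hippocampus. Gabrb1 ranged from 16.3 to 29.6 CPM in 8 females (median 18.1) and from 21.5 to 33.5 in 9 males (median 26.2). Gabrg3 ranged from 2.14 to 3.79 CPM in females (median 2.71) and from 2.98 to 5.55 in males (median 4.03). The ranges overlapped, and the differences of female minus male were -0.40 (SE 0.12, adjusted p = 0.105) and -0.44 (SE 0.12, adjusted p = 0.0939) in edgeR, where 0.907% of genes were called. With Sample_1160, a female, they were -0.42 (adjusted p = 0.381, edgeR) and -0.60 (adjusted p = 0.392, edgeR). The other hippocampal members had sex differences between -0.052 and 0.064. In the cerebellum none of the 4 passed, and 0.0499% of genes were called. The pair also moved together across libraries: the correlation of Gabrb1 and Gabrg3 over 17 hippocampi was 0.82, and that of Gabrb1 and Gabrb2 0.80, as a description across libraries that share genotype, sex and dissection.

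For each member and tissue, the 3 tested genes with the most similar log2 CPM were listed by Pearson r over 18 cerebellar or 17 hippocampal libraries. Gabrd was closest to Rps6ka1 (r = 0.97), Pxylp1 and Neurl1a in the cerebellum and to Ramp3 (r = 0.93), Chd7 and Nrg2 in the hippocampus, without a shared name. Gabrb2 was closest to Snx13, Setd7 and Azin1 (0.95 to 0.96) in the cerebellum and to 5730455P16Rik, Akap11 and Fam179b (0.95) in the hippocampus. Gabrb1 was closest to Igdcc4, Nwd1 and Prex2 (0.86 to 0.89) in the cerebellum, and Alkbh8 and Trpc5 (0.97) were among the closest in the hippocampus. Gabrg1 had the weakest leaders, Nxph1, Sstr4 and Hrasls (0.85 to 0.86) and Wrn, Lhfpl3 and Prim1 (0.82 to 0.88). Gabrg3 was closest to Tcaf1 (0.90), Ntrk2 and Pcdhgc4 (0.88) in the hippocampus. No gene was named for more than 1 member or tissue.

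The alpha subunits and the rest of the GABA system, taken from lists of the pathway, gave the setting of these values. Of 13 other subunit genes, 8 were tested in each tissue, with 2 called higher and 0 lower in the cerebellum and 1 higher and 0 lower in the hippocampus. Gabra2, found in synapses on the axon initial segment, was the gene called in both: it went from 57.4 ± 11.6 CPM in control to 95.2 ± 27.1 in cKO-/- cerebellum (SD, n = 6 each; 0.37 per allele, adjusted p = 0.00555, edgeR), and from 123 ± 14.4 to 182 ± 42.5 in the hippocampus (n = 6 and 5; 0.29, adjusted p = 0.0294, edgeR). Gabra3 went from 13.2 ± 3.16 to 31.0 ± 12.6 CPM in the cerebellum (n = 6 each; 0.62, adjusted p = 0.00712, edgeR) and was not called in the hippocampus (0.28, adjusted p = 0.102). Gabra6, the granule cell partner of delta, was at 962 ± 57.7, 896 ± 146 and 755 ± 207 CPM (SD, n = 6 each) in the cerebellum and, like Gabrd, was not called (-0.17, adjusted p = 0.113, edgeR). Gabra4, its counterpart in the dentate gyrus, gave 0.063 in the hippocampus (adjusted p = 0.460, edgeR), where Gabra5 gave 0.073. Gabra4 in the cerebellum gave 0.067, Gabrr2 there gave -0.15, and Gabrq in the hippocampus 0.72 (adjusted p = 0.142, edgeR). Gabrp, Gabrr1 and Gabrr3 were not tested in either tissue.

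In the cerebellum, 5 of 9 genes of GABA synthesis, release, uptake and breakdown were called higher and 0 lower. They were Gad2, which makes GABA (0.25, adjusted p = 0.0121), Slc32a1, which loads it into vesicles (0.15, adjusted p = 0.0282), Abat, which breaks it down (0.17, adjusted p = 0.0207), and the transporters Slc6a12 (0.35, adjusted p = 0.0180) and Slc6a13 (0.34, adjusted p = 0.0315), all in edgeR. Gad1, the other gene of GABA synthesis, was not called (0.12, adjusted p = 0.0805, edgeR). In the hippocampus 0 of the 9 were called, with Gad1 at -0.0041, Gad2 at 0.034 and Slc32a1 at -0.081. These counts stand beside 7.11% of cerebellar genes called higher and 6.55% lower, and 2.09% and 2.35% in the hippocampus. The list summed to 2140 to 2903 CPM in control cerebella, 2588 to 2943 in cKO+/- and 2638 to 3601 in cKO-/- ones. The highest sums were those of cKO-/- animals Sample_1385 (3601), Sample_1371 (3547) and Sample_1379 (3171), whose granule cell markers were at 3260, 3818 and 4287 CPM, below all controls, and whose Purkinje cell markers were at 9013, 10116 and 7331 against 5844 to 8006 in controls. Without Sample_1371 or without Sample_1385 the fit called 2 of the 9, without control Sample_1190 it called 3, and without Sample_1160 it called 7. With the covariate for animal numbers 0 of the 9 were called, in a fit that called 2.2% of all genes. Gad2 was then at 0.18 (adjusted p = 0.217, edgeR) and Slc32a1 at 0.11 (adjusted p = 0.338, edgeR). The part of cell content and of the animal numbers in this count was not tested. The interneuron list gave 1 of 5 tested markers higher and 1 lower in the cerebellum, and its sum ran from 1171 to 1623 CPM in cKO-/- mice and from 1244 to 1532 in controls.

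Genes that anchor or traffic the receptors were mostly uncalled. Of 22, only Slitrk3, an adhesion protein of inhibitory synapses, was called in the cerebellum (0.25, adjusted p = 0.0379, edgeR), and only Shisa7, an auxiliary protein of GABA-A receptors, in the hippocampus (-0.20, adjusted p = 0.0275, edgeR), where it went from 341 ± 28.3 to 255 ± 51.3 CPM (SD, n = 6 and 5). The scaffold gene Gphn gave -0.016 and 0.0032. Of 5 genes of the GABA-B receptor and its Kctd subunits, Kctd12 (0.27, adjusted p = 0.0134, edgeR) and Kctd16 (0.62, adjusted p = 0.0341, edgeR) were called higher in the cerebellum and 0 in the hippocampus. Of 8 genes of chloride transport, Slc12a7 was called higher (0.39, adjusted p = 0.0369, edgeR) and Clcn2 lower (-0.14, adjusted p = 0.0488, edgeR) in the cerebellum, and 0 in the hippocampus. Slc12a5, the neuronal chloride exporter KCC2, gave 0.097 and -0.078 and was called in neither. In the direct comparison of the allele effect between the tissues, Kctd12 differed (hippocampus minus cerebellum -0.33, adjusted p = 0.0334, edgeR), and none of the other genes tested in these 5 lists did, Gabra2, Gabra3 and Shisa7 included.

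Calls in these 5 lists did not hold with the covariate for animal numbers, which overlaps with genotype, as no control lies outside the range. With it, 0 genes of these lists were called in either tissue, where 2.2% and 0.474% of all genes were. Gabra2 was then at 0.31 (adjusted p = 0.108, edgeR) and Gabra3 at 0.26 (adjusted p = 0.281, edgeR) in the cerebellum. Hippocampal Gabra2 was at 0.19 (adjusted p = 0.775, edgeR) and Shisa7 at -0.12 (adjusted p = 0.784, edgeR). In the cerebellum Kctd12 at 0.25 (adjusted p = 0.133, edgeR) and Clcn2 at -0.14 (adjusted p = 0.269, edgeR) stayed near their main values. The other called genes gave smaller changes than in the main fits. With all 18 hippocampal libraries Shisa7 was called (-0.21, adjusted p = 0.0404, edgeR) and Gabra2 was not (0.19, adjusted p = 0.421, edgeR). Leaving out each animal in turn, 0 to 3 cerebellar genes of anchoring or trafficking, 1 to 3 of the GABA-B list and 0 to 1 of chloride transport were called higher. Of chloride transport, 0 to 1 were called lower. The other subunits stayed at 2 called higher in the cerebellum, with 1 called lower without Sample_1160 and without Sample_1219. In the hippocampus 0 to 1 of them were called higher. Of hippocampal genes of anchoring or trafficking, 0 to 1 were called higher and 0 to 2 lower. Without Sample_1155, Sample_1190, Sample_1371 or Sample_1379 the count called lower was 0, so Shisa7 was not called in those fits. The same fits called 935 to 2572 of all genes in the cerebellum and 286 to 937 in the hippocampus.

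**Figure D5:**
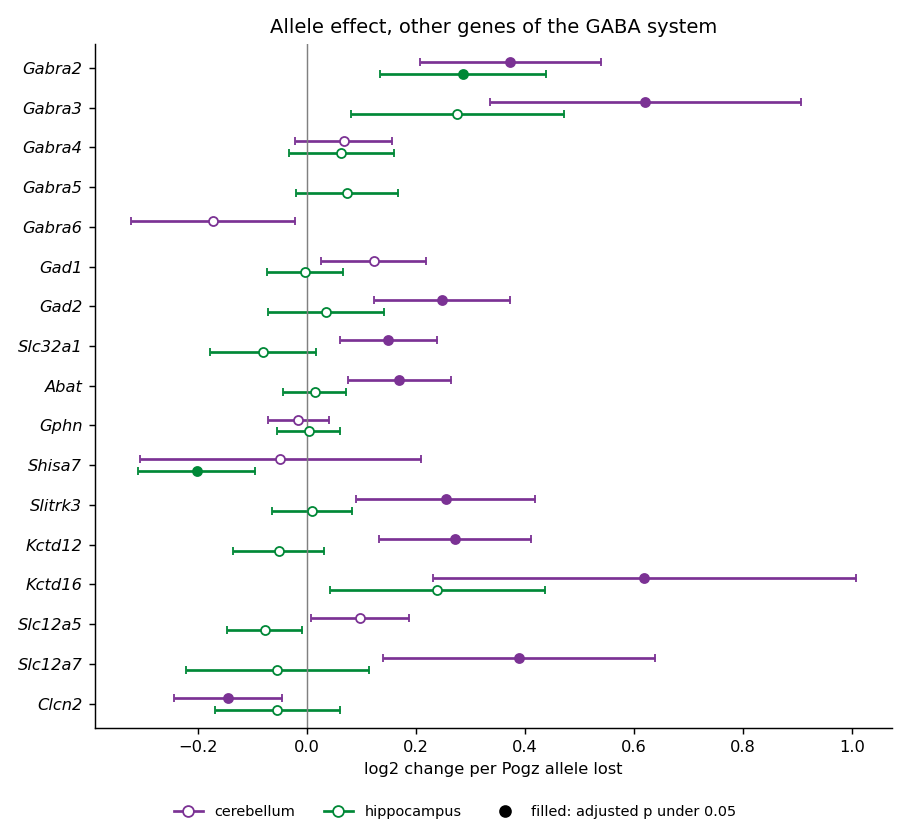
Log2 change per Pogz allele lost, with 95% intervals, of other genes of the GABA system in the cerebellum (purple) and hippocampus (green), filled where the adjusted p was under 0.05. Gabra2 is filled in both tissues (0.37 and 0.29), and Shisa7 is the only other filled point of the hippocampus.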

How the data were processed

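RNA-seq was deposited for the cerebellum and hippocampus of 18 mice as a table of raw counts per gene for each tissue. Per the labels and the study's methods, the authors made the counts from poly(A) libraries with STAR (version 250a in the submitters' processing notes), without normalization. The notes name mm9, while the deposited coordinates match GRCm38, and neither strandedness nor the treatment of multi-mapping reads is given in the sources used here. No column of per-sample values was left unused (0 columns).

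Counts were scaled with TMM factors over all 36 libraries for printed CPM and RPKM (deposited exon length). The filter kept genes with over 1 CPM in 6 or more libraries of the comparison. Tests used edgeR 4.0.16 (R 4.3.3) quasi-likelihood F-tests (legacy=TRUE) with Benjamini-Hochberg adjustment over all tested genes at an FDR of 0.05. Covariates were sex and the number of Pogz alleles lost. Hippocampal fits left out animal Sample_1160, with filter and factors over all 18 libraries. SEs are the log2 change over the square root of F, and intervals are at 95%. Correlations used log2 CPM with a prior count of 2. The test was checked on simulated counts.

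Members, gene lists and tests were chosen with earlier results of these data known. Named genes were the 6 members, listed genes passing the threshold, Gad1, Gad2, Slc32a1, Gphn, Slc12a5 and other receptor subunits, and 3 genes of similar pattern per member and tissue. Some of these genes are not reported here. The animal numbers in the labels pair both tissues of an animal. Deviations from group means within an animal correlated with a median of 0.217 (from -0.148 to 0.435, above 0.1 in 15 of 17 animals). Alternatives were relative log expression factors, DESeq2 1.42.0, no filter, the bias-adjusted fit (legacy=FALSE), no sex term, genotype as a factor, a covariate for animal numbers, the replicate block, all libraries and each animal left out. The counts of called list genes under the covariate, with all libraries and without each animal were added after seeing the data. P-values of the allele and sex effects within a tissue measure the spread between animals. The main fits between the tissues treated both libraries of an animal as independent, so their p-values do not, and the replicate block is the alternative that pairs them. Depth limits counts near 1 CPM.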

Additional observations from a re-analysis of the deposited data

Results flagged for a closer look

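The highest and lowest library of each group of 6 was compared with its neighbours by Dixon's test for each member. A library stood apart in 7 of 36 groups, where independent normal values give about 1 in 20. Animal Sample_1433, a cKO+/- male, gave 4 of them: 426 CPM of Gabrb2 in the cerebellum, below the others' 572 to 613; 314 CPM in the hippocampus, above their 214 to 246; 0.829 CPM of Gabre in the cerebellum, above 0 to 0.142; and 0.473 CPM in the hippocampus, above 0.148 to 0.193. The hippocampus of the cKO-/- female Sample_1160 gave 2 of them, 0.292 CPM of Gabrg3, below the others' 3.13 to 4.39, and 53.5 CPM of Gabrd, above 23.6 to 32.2. The last was Gabre in the cerebellum of control Sample_1192, with 0.102 CPM from 3 counts against 0 to 0.0346 in the others. The groups share libraries and Gabre is at the edge of detection, so the rate of 1 in 20 cannot be set against this count.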

How the results depend on the processing

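Tissue differences of Gabrb1, Gabrb2, Gabrg3 and Gabrd kept their direction and passed in every alternative run for them. Gabrg1 passed with the animal as a replicate block (0.26, adjusted p = 0.0345), in cKO+/- mice (0.22, adjusted p = 0.0418) and without animal Sample_1192; each control left out gave 0.17 to 0.31, and 4 to 5 members called. The block changed no other call of a member; under it the tissue difference in the allele effect of Gabrd was 0.067 and 338 genes were called in place of 203.

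For the allele effect, DESeq2 called 1 member in the hippocampus (Gabrd, -0.22, adjusted p = 0.0431) and 1048 genes in place of 636. Leaving out each animal gave 0 to 1 members called in either tissue, with Gabrd from -0.26 to -0.16 in the cerebellum and from -0.25 to -0.16 in the hippocampus, Gabrb2 from -0.0040 to 0.068 in the cerebellum, and tissue differences in the allele effect from -0.011 to 0.11 (Gabrb1), -0.039 to 0.082 (Gabrb2), -0.048 to 0.032 (Gabrg1) and -0.072 to 0.053 (Gabrd). All-gene counts then ranged from 935 (without Sample_1385) to 2572 (without Sample_1160) in place of 1916 in the cerebellum, 286 (without Sample_1371) to 937 (without Sample_936) in the hippocampus, and 85 to 363 for the difference between tissues. With the covariate for animal numbers Gabrg1 was -0.092 in the cerebellum and -0.025 in the hippocampus, the tissue difference in the allele effect was -0.099 for Gabrb2 and 0.056 for Gabrg1, and 308 cerebellar genes, 68 hippocampal genes and 10 genes for the difference were called. With all hippocampal libraries Gabrg1 was -0.0025, the tissue difference was -0.016 for Gabrb2 and 0.11 for Gabrd, the sex difference in the allele effect was -0.026 for Gabrg1 and -0.0046 for Gabrg3, and 246 genes were called for the allele effect and 6 in place of 130 for sex. Gabrb2 in hippocampal cKO+/- mice against control was -0.040. These reversals are of values that passed in no fit, and their cause was not tested. Gabrg3 in the cerebellum and Gabre rest on too few counts for the filter.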
